A study of Mus musculus with 9 samples.

Results

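The genes described here are 10 members of the prostaglandin and leukotriene pathway, taken by symbol from the 24054 genes listed for each library: *Ptgs1*, *Ptgs2*, *Ptges*, *Alox5*, *Alox5ap*, *Lta4h*, *Ltc4s*, *Ptger2*, *Ptger4* and *Ptgir*. They were measured by mRNA sequencing in 9 libraries of type 2 dendritic cells (DC2) sorted from mouse spleen, 3 in each of 3 groups. All mice were C57BL/6 and carried the genotype Clec9a-Cre/Cre Rosa-tdTomato/tdTomato, in which a Cre recombinase inserted into the *Clec9a* gene switches on the red fluorescent protein TOMATO in cells that have expressed *Clec9a*, and in their progeny. Both young groups came from mice on postnatal day 8, one being TOM+ cDC2 and the other TOM- DC2. The third group was TOM+ cDC2 from adults, aged 9 weeks for 1 library and 8 weeks for the other two. Every group was gated as live single cells without autofluorescence that were MHCII+, CD11c+ and CD11b+, then split by TOMATO. Adult TOM- DC2 were not analysed here, so the comparison of young TOM- DC2 with adult TOM+ cDC2 differs in both age and label. Because both *Clec9a* copies carry the Cre, all 9 libraries lack the functional receptor that this gene encodes. Each young library was made from a pool of spleens, and the number of mice per pool is not given in the sources used here. The study calls the libraries biological replicates, and the p-values below rest on the spread between them. In bulk libraries of this kind, fewer cells with a transcript and less transcript per cell cannot be told apart.

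Prostaglandins and leukotrienes are short-lived lipid mediators, both made from arachidonic acid that phospholipases release from membranes. Cyclooxygenases turn arachidonic acid into prostaglandin H2, from which separate synthases make prostaglandin E2, prostacyclin, prostaglandin D2 and thromboxane, while 5-lipoxygenase and its partner protein begin the path to leukotriene B4 and the cysteinyl leukotrienes. In dendritic cells, prostaglandin E2 acts mainly through the cAMP-raising receptors EP2 and EP4 and is known for its effects on migration, maturation and cytokine release.

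A library held between 12783252 and 22809401 reads that fell on genes. Of all reads, 26.1% to 31.6% were assigned to no gene and entered no test. All 10 cDC2 markers examined, among them *Itgax*, *Sirpa*, *Irf4* and *Zbtb46*, were detected, and their summed level was 18750 to 19000 TPM, the share of all transcripts scaled by length, in young TOM+ cDC2, 17520 to 18670 in TOM- DC2 and 29870 to 32110 in adult TOM+ cDC2. Levels are given as the authors' TPM, which are corrected for transcript length, so that different genes can be compared within a library. Differences were tested on read counts with the quasi-likelihood test of edgeR over the 14452 genes that averaged 1 count or more, all 9 libraries being fitted together. Each padj below is this test's Benjamini-Hochberg adjusted p over those genes unless another fit is named, and a gene was called at padj under 0.05 with a log2 fold change (log2FC) beyond 1. All 10 members passed the filter. Of the 10 cDC2 markers, *Cd209a*, *Clec10a* and *Clec4a4* were called between each young group and adults (12.8% and 11.3% of all genes). In each comparison 1 of them was higher in the young and 2 were higher in adults, so the markers did not move together. The sum above is weighted to the most abundant of them. Libraries 1, 2 and 3 of both young groups carry the numbers 81, 91 and 92 in their deposited names, and the adult libraries carry 91, 92 and 95. Young libraries of the same number deviated alike from their group means (r = 0.746, 0.501 and 0.517). The main fit did not use this pairing, and an alternative took the number as a block.

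The pathway was unevenly expressed in DC2. *Alox5ap*, *Lta4h* and *Ptgs2* were at 203 TPM or more in every library and *Ptger4* at 33.8 or more, whereas *Ptgs1*, *Ltc4s*, *Alox5*, *Ptgir*, *Ptger2* and *Ptges* reached at most 6.16 TPM. In both young groups the order from the top was *Alox5ap*, *Lta4h*, *Ptgs2* and *Ptger4*, each separated from the next by non-overlapping libraries. In adults *Ptgs2* came first, ahead of *Alox5ap* and *Lta4h*, again without overlap. Lower in the order the ranges ran together: *Ptgs1*, *Ltc4s* and *Alox5* each overlapped the next in young TOM+ cDC2, down to *Ptgir*, and so did *Ltc4s*, *Ptgir* and *Alox5* in adults, down to *Ptgs1*. *Ptger2* and *Ptges* overlapped in each of the 3 groups, and in TOM- DC2 no other neighbours did.

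Between young and adult TOM+ cDC2, 5 of the 10 genes were called, against 12.8% of all genes tested. *Ptgs1*, *Ptges* and *Ptger2* were higher in the young, where 5.96% of all genes were called in that direction, and *Ptgs2* and *Ptger4* were higher in adults, the direction of 6.86%. The TPM of both groups did not overlap for 7 members, compared with 52.1% of all genes, and 7 passed by padj alone (40.6%). Between young TOM- DC2 and adult TOM+ cDC2, the same 5 genes were called in the same directions, against 11.3% of all genes, with 6.5% higher in the young and 4.78% higher in adults. By padj alone these 5 genes passed again (36.3% of all genes), and 7 members did not overlap in TPM (50.1%). Both comparisons share the 3 adult libraries. At postnatal day 8, TOM+ cDC2 differed from TOM- DC2 in 2 of the 10 members, *Ptges* and *Ptger2*, both higher in TOM- DC2, against 1.18% of all genes in either direction and 1.16% in that one (1.6% by padj alone). No member was called higher in young TOM+ cDC2, as for nearly all genes (0.0208%). In this comparison 4 members did not overlap in TPM, *Alox5*, *Ptges*, *Ptger2* and *Ptger4*, compared with 14.4% of all genes.

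**Figure D1:**
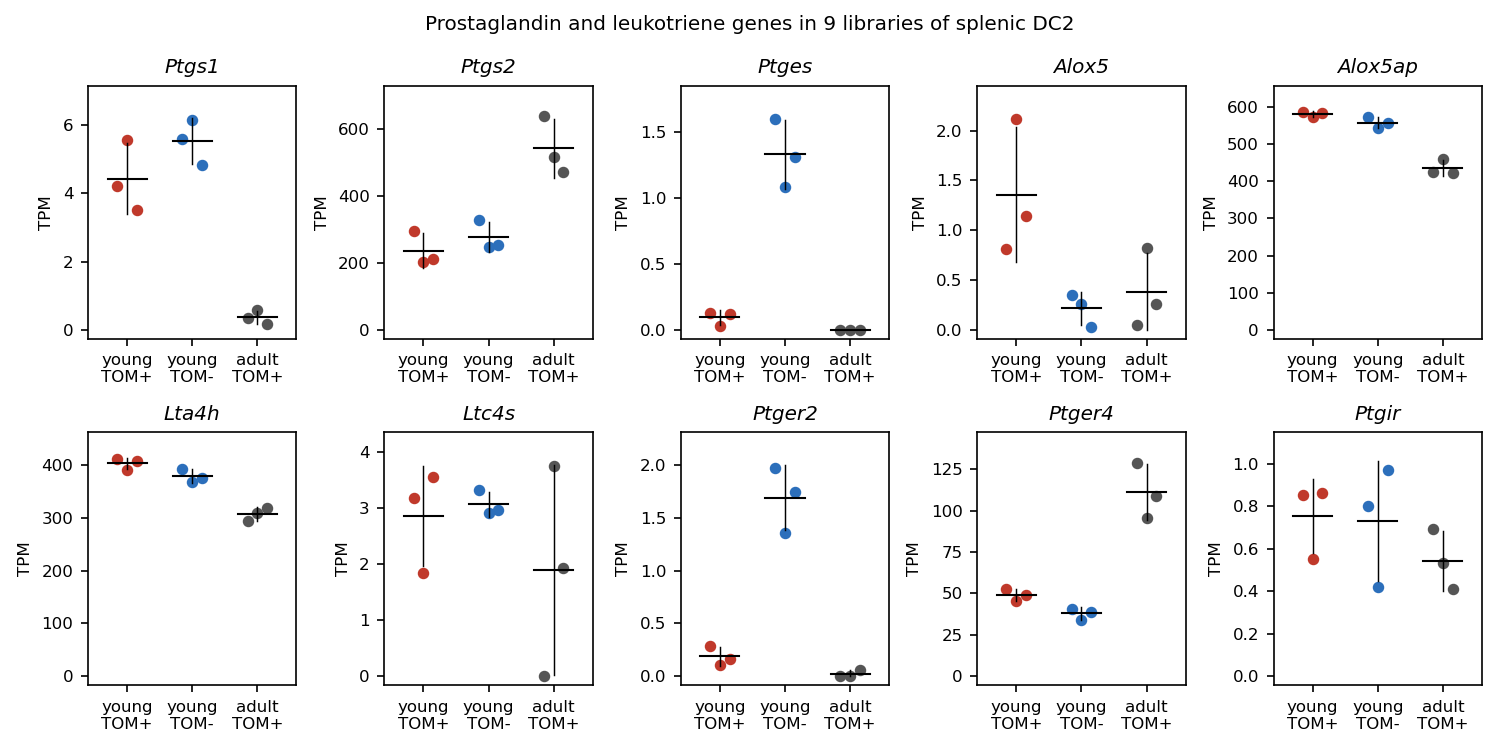
TPM of the 10 genes (linear axis from 0, different in each panel) in young TOM+ cDC2, young TOM- DC2 and adult TOM+ cDC2. Each point is 1 library, the horizontal line is the mean and the vertical line the SD (n = 3), drawn no lower than 0. *Ptgs1* was below 1 TPM in every adult library and above 3 TPM in every young one, and *Ptgs2* and *Ptger4* were highest in the adult libraries.

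*Ptgs1* encodes cyclooxygenase-1, the form most tissues make without a stimulus, and *Ptgs2* encodes cyclooxygenase-2, the form that stimuli induce. The promoter windows of both genes are shown because their transcripts changed with age in opposite directions. They cover 250 bases before to 30 bases from the annotated start on the sense strand, from RefSeq on GRCm38.p6. The *Ptgs1* window lies at chr2:36230176-36230455 (+) and the *Ptgs2* window at chr1:150099781-150100060 (+).
Ptgs1: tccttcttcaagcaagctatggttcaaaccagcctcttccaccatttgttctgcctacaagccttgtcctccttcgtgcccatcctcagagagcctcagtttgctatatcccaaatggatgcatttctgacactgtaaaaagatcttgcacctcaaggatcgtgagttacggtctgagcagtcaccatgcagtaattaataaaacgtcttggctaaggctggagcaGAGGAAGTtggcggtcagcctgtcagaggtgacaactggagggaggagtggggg
Ptgs2: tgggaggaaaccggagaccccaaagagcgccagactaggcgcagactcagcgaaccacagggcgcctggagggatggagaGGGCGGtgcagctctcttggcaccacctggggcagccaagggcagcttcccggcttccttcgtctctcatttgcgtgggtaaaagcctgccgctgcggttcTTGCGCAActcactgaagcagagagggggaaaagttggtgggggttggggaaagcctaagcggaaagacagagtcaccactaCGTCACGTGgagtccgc
Capitals mark matches to 7 motifs, each searched by its letters on both strands. The *Ptgs1* window held the PU.1 motif GAGGAAGT, beginning 24 bases before the start, which was found in 2.8% of the 32851 promoter windows of this length. In the *Ptgs2* window the GC box GGGCGG began 170 bases before the start (34.7% of windows). The C/EBP motif TTGCGCAA began 69 bases before the start of *Ptgs2* and was rare among all windows (0.2%). At base 14 from the start this window held, on the other strand, the core TGACG of the cAMP-response element (CRE), found in 19.9% of windows. Its letters overlap those of an E box, spelled CACGTG, at base 17 (6.8% of windows). The AP-1 motif TGANTCA (7.5% of windows) had no match in the windows of any member. Likewise no match was found to the TATA box, searched as TATAAA (13.1%). GC content was 49.6% in the *Ptgs1* window and 61.4% in that of *Ptgs2*, and the median of all windows was 52.5%. A match describes the letters and does not show that a factor binds there.

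*Ptgs1* was measured at 4.22, 5.56 and 3.51 TPM in the young TOM+ libraries, at 5.61, 6.16 and 4.84 in the young TOM- libraries and at 0.33, 0.57 and 0.18 in the adult libraries. The lowest young library was above the highest adult library several times over, and the young groups overlapped. It was higher in young than in adult TOM+ cDC2 by a log2FC of 3.48 ± 0.33 (SE, padj = 6.9e-06 by edgeR), an 11.2-fold difference, and in TOM- DC2 than in adults by 3.77 ± 0.32 (padj = 5e-06). These levels rest on 122 to 193 reads in each young library and on 5 to 12 in each adult library. Between the young groups the log2FC was -0.29 ± 0.23 (padj = 0.83), so a difference was not detected. The gene lies at chr2:36230426-36252272 on the plus strand (GRCm38), and 3.8% of its exon bases are shared with another annotated gene.

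*Ptgs2* went the other way. Its level was 295.71, 203.32 and 210.72 TPM in the young TOM+ libraries, 329.17, 247.70 and 254.20 in the TOM- libraries and 639.64, 514.90 and 471.46 in adults. Every adult library was above every young library, and the adult library of 9-week-old mice was the highest. The log2FC between young and adult TOM+ cDC2 was -1.33 ± 0.15 (padj = 2.3e-05), a 2.52-fold higher level in adults, and that between TOM- DC2 and adults was -1.13 ± 0.15 (padj = 9.1e-05). The second value lay close to the threshold of 1 and was -0.99 without the adult library of 9 weeks (padj = 0.00048). In each of the 3 numbers the young TOM- library was above the TOM+ library of the same number, yet the log2FC of -0.20 ± 0.15 did not pass the test (padj = 0.80, and 0.072 with the library number as a block). *Ptgs2* is located at chr1:150100031-150108227 on the plus strand and shares no exon base with another annotated gene.

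The share of *Ptgs1* in the summed TPM of both genes was 1.90% ± 0.668 (SD, n = 3) in young TOM+ cDC2, 1.99% ± 0.390 in TOM- DC2 and 0.0668% ± 0.0385 in adults. *Ptgs2* was thus the more abundant cyclooxygenase transcript in all 9 libraries. This share does not depend on how libraries are scaled. The young and adult shares did not overlap, and the exact two-sided permutation test gave p = 0.1 for each young group against adults, the smallest p that 3 against 3 libraries allow (0.18 adjusted over 9 share tests).

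*Ptgs2* is among the genes that cAMP and immediate early signals induce, so a list of 13 cAMP-response genes is given beside it. Of these, 8 had a padj under 0.05 in young against adult TOM+ cDC2 (40.6% of all genes), and 2 were called, both higher in adults (6.86% of all genes). The rest of the list, *Crem*, *Sik1*, *Areg*, *Pde4d* and *Thbs1*, did not pass there (padj = 0.34, 0.43, 0.81, 0.15 and 0.11). *Thbs1* had a log2FC of 0.35 in that comparison, higher in the young. In TOM- DC2 against adults 8 had a padj under 0.05 (36.3%), not all the same genes, and 1 was called, higher in adults (4.78%). Among these 8, *Thbs1* was higher in TOM- DC2 (log2FC 0.59, padj = 0.013), whereas *Nr4a2* no longer passed (padj = 0.11). The median log2FC of the list was -0.77 and -0.80, whereas that of all tested genes was 0.05 and 0.07. *Nr4a3*, an orphan nuclear receptor gene of the immediate early class, was measured at 33.94, 32.26 and 44.04 TPM in young TOM+ cDC2, 46.40, 43.27 and 67.39 in TOM- DC2 and 129.54, 165.35 and 133.70 in adults. No young library reached the adult range, and the log2FC was -2.08 ± 0.19 in TOM+ cDC2 (padj = 5.8e-06) and -1.61 ± 0.19 in TOM- DC2 (padj = 4.2e-05), each against adults. *Per1*, a clock gene that cAMP also induces, had a mean of 46.7 TPM in young TOM+ cDC2 and 86.1 in adults, with a log2FC of -1.0 that lay at the threshold (padj = 0.00019) and under it in 6 of 9 fits that left out 1 library.

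*Fos*, which encodes a subunit of the transcription factor AP-1, was at 1624, 2479 and 2435 TPM in young TOM+ cDC2, 1541, 2408 and 2461 in TOM- DC2 and 4660, 3396 and 2785 in adults. Its log2FC between young and adult TOM+ cDC2 was -0.85 ± 0.25 (padj = 0.016), below the fold threshold, and it was -1.02 without adult library 3 and -0.61 (padj = 0.082) without adult library 1. *Dusp1*, a phosphatase gene induced with *Fos*, gave -0.77 ± 0.24 (padj = 0.02). The young libraries numbered 81 were the highest of their groups in *Ptgs2* and the lowest in *Fos* and *Dusp1*. Immediate early transcripts can also change while cells are prepared, and their part in the *Ptgs2* difference was not tested.

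**Figure D2:**
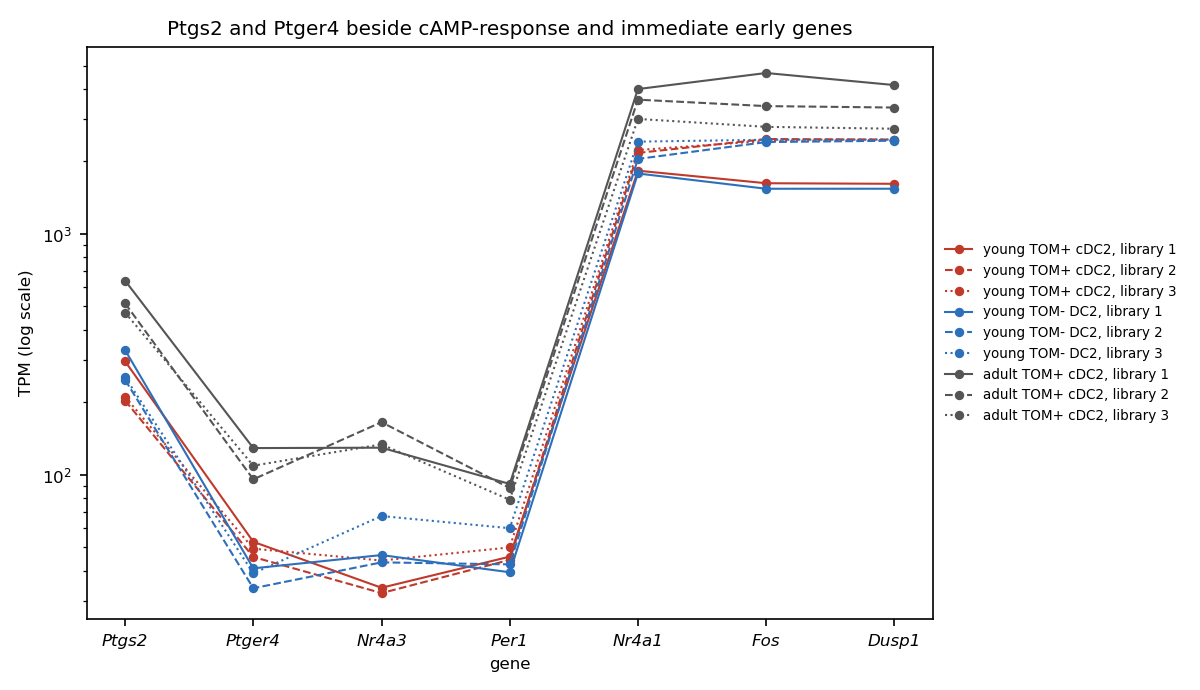
TPM (log axis) of *Ptgs2* and *Ptger4* beside 5 cAMP-response and immediate early genes, with 1 line for each of the 9 libraries, coloured by group and with a line style for each library of a group. The 5 genes beside *Ptgs2* and *Ptger4* were picked because they were higher in adults. The adult lines lie above all young lines at every gene shown, which this choice favours. Among the young libraries those numbered 81 (library 1) are highest at *Ptgs2* and lowest at *Fos* and *Dusp1*.

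*Ptges* encodes microsomal prostaglandin E synthase-1, the inducible enzyme that turns prostaglandin H2 into prostaglandin E2. Its promoter window is shown with those of the E2 receptors EP2 and EP4, since *Ptges* and *Ptger2* shared one pattern over the groups and *Ptger4* had another. The windows are at chr2:30903268-30903547 (-) for *Ptges*, chr14:44987861-44988140 (+) for *Ptger2* and chr15:5244158-5244437 (-) for *Ptger4*, drawn and marked as above.
Ptges: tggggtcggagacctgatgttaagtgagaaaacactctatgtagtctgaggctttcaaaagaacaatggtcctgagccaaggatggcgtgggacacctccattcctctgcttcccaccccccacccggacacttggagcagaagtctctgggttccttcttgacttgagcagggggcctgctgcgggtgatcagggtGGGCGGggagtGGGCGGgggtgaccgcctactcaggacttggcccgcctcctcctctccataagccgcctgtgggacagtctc
Ptger2: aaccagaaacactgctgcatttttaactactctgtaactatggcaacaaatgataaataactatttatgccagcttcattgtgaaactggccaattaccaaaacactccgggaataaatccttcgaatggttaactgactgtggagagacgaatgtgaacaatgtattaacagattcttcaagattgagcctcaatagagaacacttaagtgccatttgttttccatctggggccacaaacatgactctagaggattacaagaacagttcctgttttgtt
Ptger4: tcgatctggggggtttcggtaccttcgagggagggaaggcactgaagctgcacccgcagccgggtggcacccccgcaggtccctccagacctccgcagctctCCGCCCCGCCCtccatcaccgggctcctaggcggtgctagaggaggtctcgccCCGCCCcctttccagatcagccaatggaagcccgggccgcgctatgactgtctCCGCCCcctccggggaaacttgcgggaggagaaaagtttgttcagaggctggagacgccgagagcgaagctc
The *Ptges* window held GC boxes at 53 and 42 bases before the start. In the *Ptger4* window 4 GC boxes were found on the other strand, at 148, 143, 95 and 42 bases before the start, the first and second of them sharing letters, and its GC content was 66.8%. No match to the 7 motifs was found in the *Ptger2* window, whose GC content was 37.9%. RefSeq promoter windows were matched for 9 of the 10 members, and GC boxes were also found in those of *Alox5* and *Ptgir*.

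*Ptges* was low everywhere and was measured mainly in young TOM- DC2. Its level was 0.13, 0.03 and 0.12 TPM in young TOM+ cDC2, 1.60, 1.08 and 1.31 in TOM- DC2 and 0 in each adult library. The groups did not overlap. TOM- DC2 exceeded TOM+ cDC2 of the same age, the log2FC of TOM+ minus TOM- being -3.64 ± 0.46 (padj = 0.0021), a 12.5-fold difference resting on 125 reads in TOM- and 10 in TOM+ libraries. In adults no read was counted, which allows up to 3 counts over the group, so TOM- DC2 were at least 29.1-fold higher than adult cDC2 (padj = 4.4e-05). For young TOM+ cDC2 the bound was at least 2.26-fold (padj = 0.013), and this call was not made with the library number as a block (padj = 0.069). Such bounds cover counting error only, as amplified reads without molecular identifiers are not independent molecules. The gene is annotated by GENCODE at chr2:30889471-30929863 on the minus strand. The RefSeq window above thus lies inside the gene and not at its GENCODE start.

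*Ptger2*, which encodes EP2, showed the same order of groups as *Ptges*. It was measured at 0.29, 0.11 and 0.16 TPM in young TOM+ cDC2, 1.97, 1.36 and 1.74 in TOM- DC2 and 0, 0 and 0.06 in adults. All TOM- libraries were above all TOM+ libraries of both ages. The log2FC between the young groups was -3.17 ± 0.43 (padj = 0.0015), an 8.98-fold higher level in TOM- DC2. Against adults, where 2 reads were counted in all, the ratio was 70.9 for TOM- DC2 (203 reads, exact counting interval 19.4 to 589.5, padj = 2.1e-05) and 7.80 for young TOM+ cDC2 (23 reads, 1.93 to 68.3, padj = 0.016). The latter call was lost when the young TOM+ library numbered 81 was left out (padj = 0.052). *Ptger2* lies at chr14:44988195-45003820 on the plus strand by GENCODE, and the RefSeq window above ends before that start.

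*Ptger4* encodes EP4 and was by far the more abundant of this receptor pair. Its level was 52.66, 45.56 and 49.33 TPM in young TOM+ cDC2, 40.87, 33.79 and 38.99 in TOM- DC2 and 129.07, 95.73 and 109.09 in adults. The 3 groups did not overlap, with adults highest and TOM- DC2 lowest. The log2FC against adults was -1.30 ± 0.11 for young TOM+ cDC2 (padj = 3.3e-06) and -1.71 ± 0.11 for TOM- DC2 (padj = 7.9e-07), that is 2.46-fold and 3.28-fold higher levels in adults. Between the young groups it was 0.41 ± 0.11 (padj = 0.11), and with the library number as a block padj was 0.012 at the same log2FC, which lies under the fold threshold. The gene is at chr15:5206661-5244187 on the minus strand, and 16.5% of its exon bases overlap those of a pseudogene and of *Ttc33*, so that its counts are in part uncertain.

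Of the summed TPM of both receptors, *Ptger4* made up 99.6% ± 0.159 in young TOM+ cDC2, 95.8% ± 0.365 in TOM- DC2 and 99.98% ± 0.0317 in adults (SD, n = 3). The share in TOM- DC2 was below that of either other group in every library, with the smallest p the design allows in each comparison (exact permutation test, p = 0.1, 0.18 adjusted). *Ptgir*, the prostacyclin receptor gene, stayed below 1 TPM in all libraries, at 0.85, 0.55 and 0.86 in young TOM+ cDC2, 0.80, 0.42 and 0.97 in TOM- DC2 and 0.69, 0.53 and 0.41 in adults. The 3 groups overlapped, and the largest log2FC, between young and adult TOM+ cDC2, was 0.38 ± 0.39 (padj = 0.47), from 13 to 44 reads per library.

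Of the 4 genes of the leukotriene branch, none was called in a comparison. Over all genes 12.8% and 11.3% were called for young TOM+ cDC2 and TOM- DC2 against adults and 1.18% between the young groups. With so few genes, none called is near these shares. *Alox5ap* encodes the protein FLAP, which presents arachidonic acid to 5-lipoxygenase, and was measured at 587.06, 572.44 and 584.18 TPM in young TOM+ cDC2, 573.11, 545.14 and 557.97 in TOM- DC2 and 426.51, 460.48 and 421.42 in adults. *Lta4h*, whose product makes leukotriene B4, was at 411.49, 392.18 and 408.77, at 393.83, 368.03 and 376.61 and at 293.74, 310.35 and 318.84 TPM in these groups. For both genes each young library was above each adult library. The TPM of 52.1% and 50.1% of all genes did not overlap between young TOM+ cDC2 or TOM- DC2 and adults. On the TPM scale, with a pseudocount of 0.1, the median gene was also higher in these young groups, by a log2FC of 0.17 and 0.22. An antisense gene shares 13.3% of the exon bases of *Alox5ap*. The log2FC between young and adult TOM+ cDC2 was 0.29 ± 0.08 for *Alox5ap* (padj = 0.012) and 0.26 ± 0.07 for *Lta4h* (padj = 0.013), a 1.22-fold and a 1.20-fold difference under the fold threshold. For TOM- DC2 against adults the values of 0.20 (padj = 0.063) and 0.14 (padj = 0.15) did not pass. Neither gene differed detectably between the young groups (log2FC 0.09, padj = 0.87, and 0.12, padj = 0.71).

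*Alox5*, the gene of 5-lipoxygenase itself, was far less abundant than its partner *Alox5ap*. It was measured at 0.81, 2.12 and 1.14 TPM in young TOM+ cDC2, 0.35, 0.26 and 0.03 in TOM- DC2 and 0.05, 0.82 and 0.26 in adults. Each young TOM+ library was above each TOM- library, while adults overlapped both. The log2FC between the young groups was 2.88 ± 0.74 and was not called (padj = 0.094). With the library number as a block, the difference of 2.86 was called (padj = 0.016), as it was by DESeq2 (2.87, padj = 0.014). Against adults, young TOM+ cDC2 gave 1.73 ± 0.69 (padj = 0.064) and TOM- DC2 -1.16 ± 0.84 (padj = 0.30). These values rest on 26 to 61 reads per young TOM+ library, 2 to 8 per TOM- library and 1 to 17 per adult library. Without the adult library 2, which held 17 of the 26 adult reads, the first of them was 2.80 (padj = 0.018), and without young TOM+ library 1 it was 2.01 (padj = 0.036). It was 1.23 without young TOM+ library 2 (padj = 0.25) and also without adult library 1 (padj = 0.17). The second moved to -0.08 without adult library 2 (padj = 0.96) and to -0.64 without TOM- library 3 (padj = 0.61).

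*Ltc4s*, which encodes leukotriene C4 synthase, the enzyme of the cysteinyl branch, was at 3.18, 1.85 and 3.55 TPM in young TOM+ cDC2, 3.33, 2.92 and 2.96 in TOM- DC2 and 0, 3.75 and 1.93 in adults. The adult library of 9-week-old mice was listed at 0 TPM although 11 reads were counted on the gene, and 26.4% of its exon bases overlap an antisense gene, so its level is uncertain. No comparison passed the test, with log2FC of 0.03 ± 0.37 and 0.04 ± 0.37 for the young groups against adults (padj = 0.95 for each). Relative to *Lta4h*, which competes for the same substrate, *Ltc4s* made up 0.699% ± 0.204 of the summed TPM in young TOM+ cDC2, 0.802% ± 0.0319 in TOM- DC2 and 0.599% ± 0.597 in adults (SD, n = 3), and these shares overlapped between young and adult cells (exact permutation test, p = 0.7 to 0.8).

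**Figure D3:**
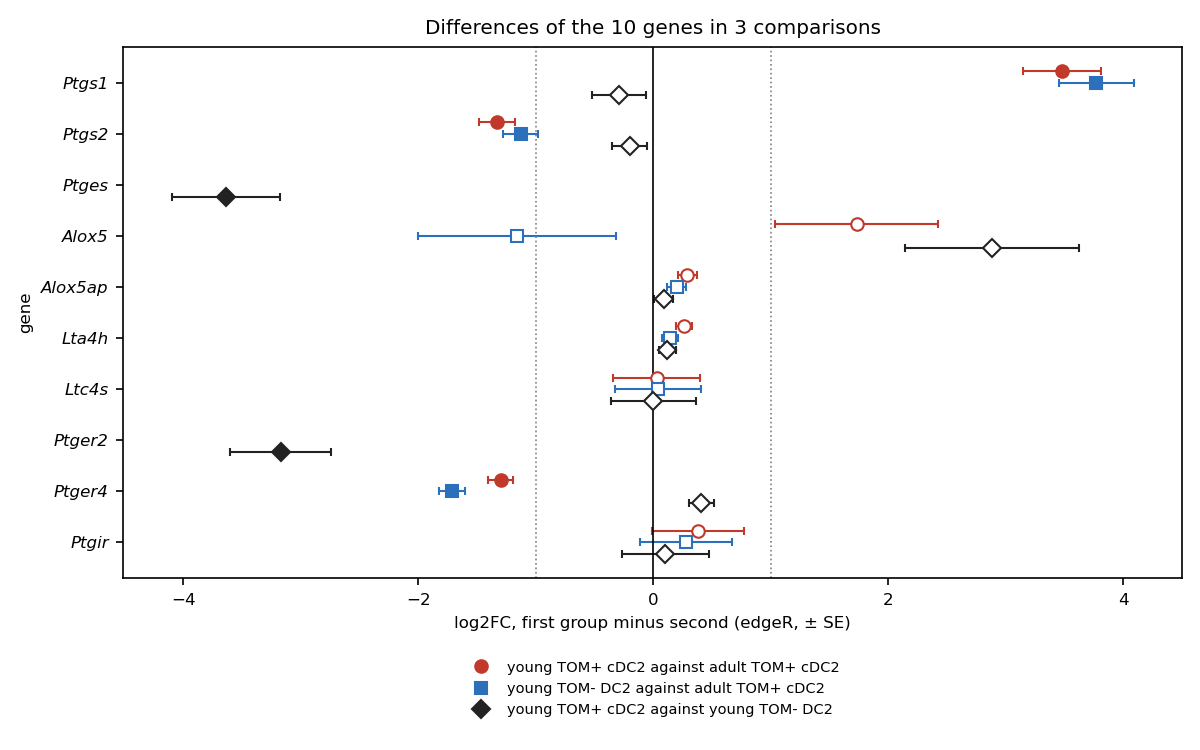
Log2FC ± SE from edgeR for each gene in the 3 comparisons, as first group minus second. Filled symbols were called, open ones were not, and dotted lines mark a log2FC of 1 in either direction. The fitted values of *Ptges* and *Ptger2* against adults are left out, because no read and 2 reads were counted there. *Ptgs1* lies above 3 in both age comparisons, and *Ptgs2* and *Ptger4* lie below -1.

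Beside the members, 7 lists with 69 genes were examined, of which 57 were tested. They include the 13 cAMP-response genes above, which are not themselves prostaglandin or leukotriene pathway genes. Against adult TOM+ cDC2, 7 of the list genes were called higher in young TOM+ cDC2 and 7 lower (5.96% and 6.86% of all genes), while TOM- DC2 gave 9 higher and 5 lower (6.5% and 4.78%). The cAMP-response list holds 2 of the 7 lower and 1 of the 5 lower genes. The median log2FC over the tested list genes was 0.03 and 0.13, and that over all genes 0.05 and 0.07. These list medians include the cAMP-response genes, whose own medians were -0.77 and -0.80. Between the young groups 1 gene was called (1.18% of all genes), *Mgll*, which encodes monoacylglycerol lipase, an enzyme that frees arachidonic acid from an endocannabinoid. Its level was 0.23, 0.14 and 0.07 TPM in TOM+ cDC2, 2.35, 1.87 and 1.88 in TOM- DC2 and 0, 0.12 and 0.15 in adults. All TOM- libraries stood above the rest, with a log2FC of -3.96 ± 0.49 between young TOM+ and TOM- cells (padj = 0.00071).

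On the list for release of arachidonic acid, 10 of 11 genes were tested. *Pla2g7*, the gene of a secreted enzyme that inactivates platelet-activating factor, had the highest level, at 219.73, 209.02 and 209.57 TPM in young TOM+ cDC2, 253.71, 267.50 and 227.30 in TOM- DC2 and 62.60, 80.40 and 64.26 in adults. It was higher in the young without overlap, by 1.5 ± 0.11 in TOM+ cDC2 (padj = 1.2e-06) and 1.70 ± 0.11 in TOM- DC2 (padj = 7.3e-07). An antisense gene shares 11.0% of the exon bases of *Pla2g7*. *Pla2g12a* was also called higher in both young groups (log2FC 1.29 and 1.77). *Pla2g2d*, a secreted phospholipase gene, was called higher in adults, at 1.88, 2.13 and 0.09 TPM, while its 3 TOM- libraries held no read, at least a 32.9-fold difference. The call against young TOM+ cDC2 (padj = 0.019) was lost by DESeq2 (padj = 0.17) and when adult library 1, adult library 2 or young TOM+ library 3 was left out (padj = 0.061, 0.074 and 0.058). The cytosolic phospholipase gene *Pla2g4a*, singled out after its values were seen because its product supplies most arachidonic acid in leukocytes, had means of 29.9, 29.6 and 26.9 TPM in young TOM+, young TOM- and adult cells. *Daglb*, a diacylglycerol lipase gene with 24.1% of its exon bases shared with a gene on the other strand, was second in level, at means of 57.8, 58.9 and 41.2 TPM, and was not called.

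Of 10 other prostanoid synthase genes, 6 were tested. *Tbxas1*, which encodes thromboxane synthase, was called higher in adults, with a mean of 4.63 TPM ± 0.824 (SD, n = 3) and 1.64 ± 0.276 in young TOM+ cDC2 and 2.06 ± 0.389 in TOM- DC2. The log2FC was -1.57 ± 0.25 (padj = 0.0003) and -1.25 ± 0.24 (padj = 0.0016). The most abundant was *Ptges3*, whose product p23 is better known as a cochaperone, with means of 217.8, 221.5 and 169.0 TPM in young TOM+, TOM- and adult cells. *Cbr1*, a carbonyl reductase gene, followed by the mean over all libraries, at 14.2, 16.0 and 15.2 TPM, and neither was called. *Ptgds*, *Ptgis* and *Akr1c18* were at or near 0 in all libraries. Of the genes that remove prostaglandins, *Hpgd*, the gene of the enzyme that inactivates prostaglandin E2, stood at 64.8, 78.0 and 61.7 TPM in the 3 groups and was not called, nor was the next in level, the reductase gene *Ptgr2* (20.98, 21.06 and 17.31 TPM). A gene on the other strand shares 32.0% of the exon bases of *Ptgr2*. *Ptgr1*, which encodes a reductase of prostaglandins and leukotriene B4, was called higher in both young groups, with means of 5.15 and 5.86 TPM against 1.80 in adults (padj = 0.00036 and 0.00028).

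Among the other prostanoid receptors, *Ptger3*, the gene of the cAMP-lowering receptor EP3, had the highest level. It was measured at 81, 62.62 and 55.92 TPM in young TOM+ cDC2, 77.91, 59.55 and 58.48 in TOM- DC2 and 56.71, 55.04 and 43.24 in adults, and no difference was called. Per library, *Ptger3* was thus above *Ptger4* in all 6 young libraries and below it in all 3 adult ones. *Ptgdr2*, the gene of a prostaglandin D2 receptor, was low but called higher in both young groups (means of 1.44 and 1.92 TPM against 0.467, padj = 0.0016 and 0.00045), with 39% of its exon bases shared with *Ccdc86*.

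The cysteinyl leukotriene receptor gene *Cysltr1* had the lowest padj of the list genes in both age comparisons. It was at 34.91, 32.93 and 31.00 TPM in young TOM+ cDC2, 33.25, 32.07 and 28.26 in TOM- DC2 and 2.70, 2.69 and 2.63 in adults. Libraries within each group lay close together, and the log2FC against adults was 3.49 ± 0.11 (padj = 2.4e-09) and 3.38 ± 0.11 (padj = 3.6e-09), an 11.2-fold difference in TOM+ cDC2. The second such receptor, *Cysltr2*, stayed near or below 1 TPM and was called the other way, higher in adults (log2FC -2.59 and -3.34, padj = 0.0091 and 0.0037). *Ggt5*, whose product cleaves leukotriene C4 to D4, was called higher in adults, at 20.7 TPM ± 3.53 against 9.42 ± 0.838 in young TOM+ and 10.2 ± 1.63 in TOM- cells. *Ltb4r1*, the gene of the high-affinity leukotriene B4 receptor, stood at 24.76, 24.83 and 22.40 TPM in young TOM+ cDC2, 19.35, 18.70 and 19.34 in TOM- DC2 and 11.79, 13.65 and 13.07 in adults. It did not overlap between any groups, and its log2FC of 0.80 ± 0.11 in young against adult TOM+ cDC2 (padj = 0.00013) lay under the fold threshold. It was singled out after its values were seen. By the mean over all libraries, *Cyp4f18*, a cytochrome P450 gene (44.7, 47.0 and 41.6 TPM), had the highest level of this list. *Abcc1*, which encodes an exporter of leukotriene C4 (24.5, 24.0 and 27.9 TPM), came next by that mean, and neither was called. In both young groups *Cysltr1* was above *Abcc1*.

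On the list of other lipoxygenases, enzymes related to *Ltc4s* and *Alox5ap*, and *Gpx4*, *Cotl1* and *Ephx2*, 9 of 12 genes were tested. *Cotl1*, whose product binds actin and 5-lipoxygenase, had the highest level but varied widely within groups, at 992.1 TPM ± 599.4 (SD, n = 3), 1480 ± 513.1 and 672.3 ± 569.1, and was not called. The glutathione peroxidase gene *Gpx4* followed (234.3, 268.8 and 215.8 TPM), also not called. *Alox15*, the gene of a lipoxygenase that makes anti-inflammatory lipids, was called higher in both young groups at below 1 TPM on average (means of 0.79, 0.65 and 0.133 TPM, padj = 0.0032 and 0.0097). *Mgst3* was called higher in both (13.9, 15.9 and 5.62 TPM). *Mgst2*, which can also make leukotriene C4, was called in TOM- DC2 alone against adults (0.633, 3.0 and 0.423 TPM, padj = 0.0085), and its difference between the young groups was not called. *Ephx2*, an epoxide hydrolase gene, was called lower in young TOM+ cDC2 than in adults at a log2FC of -1.02 ± 0.33 (padj = 0.028), a call lost in 4 of 9 fits that left out 1 library (padj up to 0.10).

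**Figure D4:**
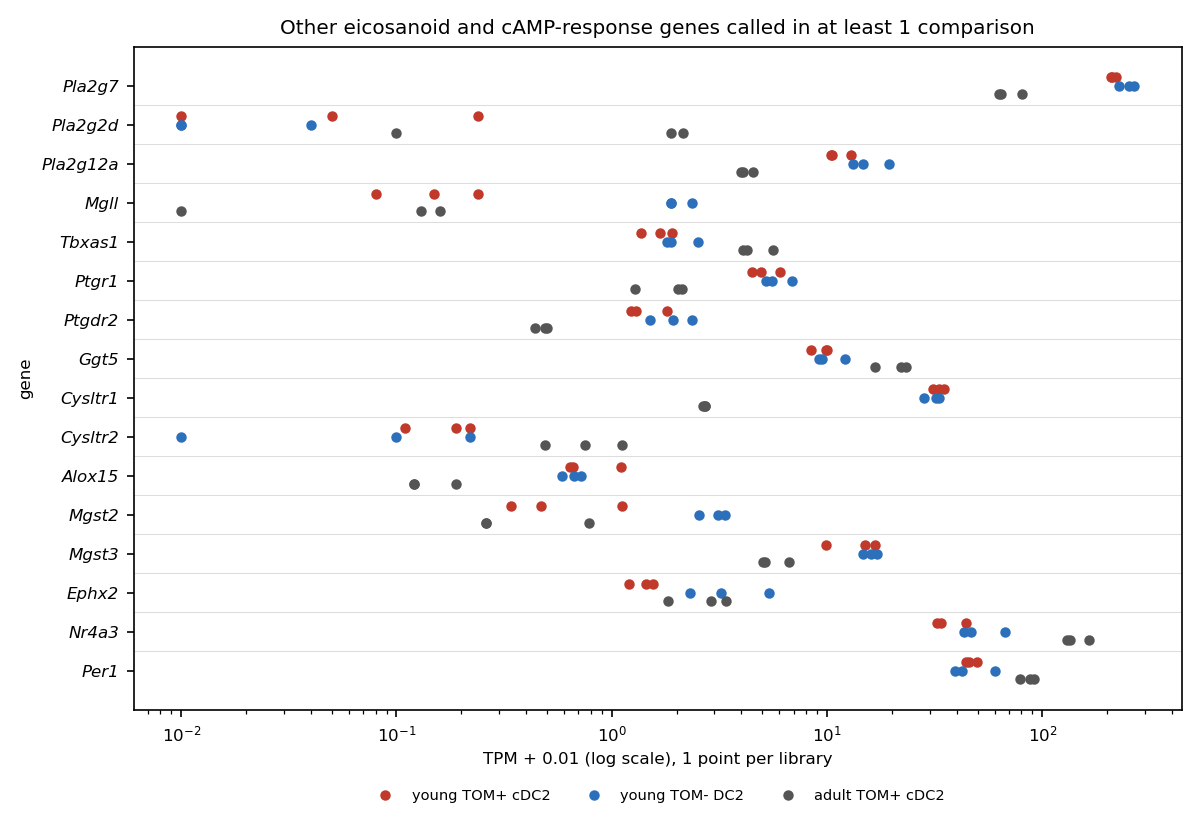
TPM plus 0.01 (log axis) of the 16 list genes called in at least 1 comparison, with 1 point per library coloured by group, so that a point at the left edge is a library at 0 TPM. The adult points of *Cysltr1* and *Pla2g7* lie below all young points and those of *Nr4a3*, *Per1*, *Ggt5* and *Tbxas1* above them. For *Mgll* and *Mgst2* the young TOM- points stand to the right of both other groups.

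Genes whose log2(TPM + 1) over the 9 libraries was most like that of a called member were searched for among 10111 or 10112 genes that averaged 50 counts or more. This is a description, and with 3 groups of 3 libraries it mostly reflects group means. For *Ptgs1* they were *Pycard* (Pearson r = 0.996), *Dnajc9* and *Tm6sf1*, with means of 88.1, 106 and 132 TPM in young TOM+ cDC2 and 50.7, 58.4 and 83.2 in adults. *Gbp4* (0.993), *Esam* (0.990) and *Xaf1* (0.987) were nearest to *Ptgs2*, and *Esam*, a marker of one cDC2 subset, stood at 19.0, 28.4 and 80.0 TPM in young TOM+, young TOM- and adult cells. Those nearest to *Ptges* were *Lingo4* (0.995), *Pigr* (0.994) and *5930403L14Rik* (0.993), and *Lingo4* was at 0.07, 5.86 and 0 TPM. *Ptger2* was most like *Sept4* (0.993), *Lingo4* (0.991) and *Aatk* (0.990), and *Ptger4* most like *Zfp287* (0.993), *Scn2b* (0.991) and *Asb13* (0.986).

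Markers of other cells and of cDC2 subsets were measured in the same libraries, and their part in the differences above was not tested. The 6 markers of ESAMhigh cDC2 summed to 318 to 436 TPM in young TOM+ cDC2 and 386 to 508 in TOM- DC2, compared with 767 to 793 in adults, with 4 of 6 called higher in adult than in young TOM+ cDC2, in the direction of *Ptgs2* and *Ptger4*. Platelet markers, of interest because platelets carry *Ptgs1*, summed to 4.35 to 9.00, 6.40 to 8.26 and 10.4 to 19.5 TPM, lower in both young groups than in adults. Of 6 platelet markers tested, *Itgb3* was called higher in adults than in young TOM+ cDC2. In TOM- DC2 against adults *Ppbp* and *Itgb3* were called, 1 in each direction. The 10 macrophage markers summed to 365 to 395, 481 to 540 and 264 to 329 TPM, and 8 B cell markers to 61.8 to 71.8, 77.3 to 89.7 and 45.2 to 58.4, each highest in TOM- DC2, where *Ptges*, *Ptger2* and *Mgll* were highest. Of the B cell markers *Ms4a1* and *Fcer2a* were called higher in TOM- DC2 than in young TOM+ cDC2. Mast cells and basophils are rich in *Ltc4s*, and 7 of 10 of their markers were at 0 in all libraries, *Mcpt8*, *Fcer1a*, *Ms4a2*, *Prss34*, *Cma1*, *Tpsb2* and *Mcpt4*. Their sum was 6.13 to 6.63, 8.85 to 10.2 and 15.9 to 22.4 TPM in the 3 groups, highest in adults. Of the 2 that were tested, *Hdc* was called higher in adults than in either young group. Neutrophil markers, examined because neutrophils are rich in *Alox5*, summed to 1.39 to 1.78 TPM in young TOM+ cDC2 and 0.89 to 38.1 in TOM- DC2, and in adults to 0.34 to 0.65. Monocyte markers summed to 249 to 261 TPM in young TOM+ cDC2 and 291 to 310 in TOM- DC2, while adults were at 340 to 364, without overlap and in the order of the group means of *Ptgs2*, and 1 of 8 was called, higher in adult than in young TOM+ cDC2. T cell markers gave 27.6 to 28.6, 38.4 to 39.9 and 21.6 to 32.0 TPM in these groups, highest in TOM- DC2 like *Ptges*, *Ptger2* and *Mgll*, and none was called between the young groups. Markers of cDC1 summed to 25.6 to 27.7, 26.3 to 29.1 and 13.3 to 14.5 TPM, lowest in adults. Eosinophil markers lay at 0.44 to 1.23, 1.49 to 3.91 and 3.29 to 4.65 TPM, lowest in young TOM+ cDC2. ESAMlow markers summed to 1757 to 2603, 1850 to 3090 and 1879 to 2374 TPM, those of pDC to 4.27 to 5.61, 3.45 to 5.62 and 3.59 to 5.68 and those of endothelial and stromal cells to 1.57 to 12.7, 2.70 to 9.25 and 2.29 to 2.82, and for each of these 3 lists the groups overlapped.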

How the data were processed

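RNA of sorted cells was amplified by SMART-seq, a strand-blind chemistry, and sequenced as single-end reads. Per the labels and the methods of the study, reads were aligned to mm10 with STAR and quantified with RSEM, and versions are not given in the sources used here. The authors deposited STAR counts per gene (unnormalized, unstranded column used, since both strand columns held about the same number of reads), together with the expected counts, TPM and effective lengths of RSEM. The deposited TPM were used for levels and shares, the deposited expected counts, rounded, for 1 alternative, and the deposited effective lengths for shares from STAR counts per length, also an alternative. FPKM were not used. STAR's 4 summary lines entered neither library sizes nor tests. Counting left out multimapping reads and used no strand, so overlapping genes are uncertain.

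Counts were tested in R 4.3.3 with edgeR 4.0.16 (quasi-likelihood, TMM, average count of at least 1, Benjamini-Hochberg adjustment), fitting 9 libraries in 3 groups. TMM factors were 1.025 to 1.085 in young and 0.894 to 0.928 in adult libraries. The lowest chi-square per gene between libraries of a group was 8.74, so no pair was a copy. Alternatives used other size factors and filters, DESeq2 1.42.0, RSEM counts, limma 3.58.1 on log2(TPM + 1) and log2(TPM + 0.1), only the groups compared, a block on the library number and each library left out. The fits were tested on simulated data. The labels give no replicate numbers. The number in the deposited names paired the young libraries: their deviations from group means correlated at 0.746, 0.501 and 0.517 over 10112 genes. Young and adult libraries with a shared number gave -0.003 to 0.157.

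The members and all gene lists were chosen with earlier results of these data known. The text names every member, of the pathway lists every gene called in a comparison plus the 2 of highest mean TPM of each list, marker lists by their sums, and for each member called with age in TOM+ cDC2 the 3 genes most like it. Of the genes picked as the highest of a list, 1 is not reported here. Fold changes against groups at 0 reads use a floor of 3 counts over the group. Positions are from GENCODE M21 and promoter windows from RefSeq.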

Additional observations from a re-analysis of the deposited data

How the results depend on the processing

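The number of members called stayed at 4 to 6 of 10 in young against adult TOM+ cDC2 except with limma on log2(TPM + 1), which called 3, at 4 or 5 in TOM- DC2 against adults and at 2 or 3 between the young groups. Leaving out 1 library gave 5 to 6, 4 to 5 and 2 calls. *Ptgs1* and *Ptger4* against adults, and *Ptges* and *Ptger2* in TOM- DC2 against either other group, kept direction and call under every alternative. With the replicate block the pairing moved all-gene calls between the young groups from 170 to 274, added *Alox5* there (log2FC 2.86, as did DESeq2 and no filter on low counts) and took away *Ptges* in young against adult TOM+ cDC2 (padj = 0.069). Limma took away the latter too (log2FC 0.13 and 0.91 with pseudocounts of 1 and 0.1), *Ptger2* in that comparison (0.22) and *Ptgs2* in TOM- DC2 (-0.97), and *Ptger2* was also lost when only the groups compared were fitted (padj = 0.051). Leaving out both young libraries numbered 81, an alternative chosen after seeing the data, took away *Ptger2* in young against adult TOM+ cDC2 (padj = 0.066) and added *Alox5* against either group (1.99 and 3.69). Values near 0 changed sign: *Ltc4s* against adults, from 0.03 and 0.04, went to -0.17 in both comparisons with the block, to -0.06 for TOM- DC2 without the libraries numbered 81, and ran from -0.19 to 0.53 and -0.18 to 0.54 when single libraries were left out. *Ptgir* went to -0.02 for TOM- DC2 with the block, and ran from -0.05 to 0.54 there and from -0.16 to 0.41 between the young groups. On the TPM scale with a pseudocount of 0.1, the median gene was 0.17 and 0.22 higher in the young groups than in adults, and 57.4% and 70.3% of called genes were higher in the young, compared with 46.5% and 57.6% in edgeR. Limma on log2(TPM + 1) called 1122 and 986 genes there, compared with 1853 and 1631. Depth limits *Ptges*, *Ptger2*, *Alox5*, *Ltc4s* and *Ptgir* most, which hold under 100 reads per library. The causes were not tested.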
